A study of Mus musculus with 9 samples.

Results

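Tuft cell genes were described in the mouse colon as a set of 10 genes, taken by name as known genes of these cells: Pou2f3, Gfi1b, Gnat3, Trpm5, Dclk1, Avil, Sh2d6, Alox5, Il25 and Il17rb. All 10 were present among the 21498 gene symbols of the expression tables. The samples were colon RNA from 9 male mice of the outbred ICR strain, 5 weeks old when the experiment began, in 3 groups of 3 mice. Control mice received neither AOM, DSS nor antibody, and gave normal mucosa. AOM/DSS + IgG Ab mice received 1 injection of 10 mg/kg azoxymethane (AOM), a carcinogen of the colon, then 3 cycles of dextran sulfate sodium (DSS), which injures the colon lining (2% for 7 days, then 1.5% for 5 days in each later cycle), with 1.5 mg/kg of a control antibody during the DSS cycles. AOM/DSS + anti-S100a9 Ab mice received the same AOM and DSS with 1.5 mg/kg of an antibody against S100a9, a calcium-binding protein abundant in neutrophils. The labels describe both AOM/DSS groups as colorectal adenocarcinoma taken at the end of week 18, whereas in the study's text the samples with anti-S100a9 Ab are mucosa, so treatment and the kind of tissue sampled cannot be told apart for that group. In the following, the AOM/DSS groups are called by their antibody, IgG Ab and anti-S100a9 Ab.

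Tuft cells are rare chemosensory cells of the gut lining with a brush of long microvilli. They arise under the transcription factor Pou2f3, sense parasites and microbial products through a signal chain shared with taste cells, and answer with the cytokine Il25, leukotrienes, prostaglandins and acetylcholine. Il25 acts on group 2 innate lymphoid cells, whose Il13 in turn makes the epithelium produce more tuft and goblet cells, a loop known as the tuft-ILC2 circuit. In mouse models of colon cancer, Dclk1 has also been used to mark tuft cells and tumor cells with tuft cell features.

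The expression values were read as FPKM, a level scaled by transcript length and sequencing depth, so levels of different genes can be set beside each other. Tuft cell genes were low in these libraries. Over the Control group, the mean level of Alox5 was above that of 44.8% of all genes and that of Gnat3 above 28.9%, and the other members lay between these. The order of the Control levels was Alox5 (1.23 ± 0.0839 FPKM), Sh2d6 (1.18 ± 0.509 FPKM), Avil (0.995 ± 0.329 FPKM), Dclk1 (0.846 ± 0.140 FPKM), Il17rb (0.762 ± 0.109 FPKM), Trpm5 (0.489 ± 0.217 FPKM), Gfi1b, Pou2f3 (0.133 ± 0.0260 FPKM), Il25 and Gnat3 (0.0553 ± 0.0302 FPKM), each as mean ± SD of n = 3. Between all neighbours in this order, the ranges of the 3 Control mice overlapped. Gfi1b and Il25 are given by sample only, because each had a value of 0 in at least 1 library. Groups were compared on log2(FPKM + 0.1) with limma's moderated test over the 15278 genes that reached 0.1 FPKM in 3 or more samples, and a gene was called changed at an adjusted p under 0.05. This filter kept 8 of the 10 members and left out Gnat3 and Il25. The log2 scale with 0.1 added understates the change of genes as low as these, and in bulk tissue fewer cells of a type and less RNA per cell cannot be told apart. IgG Ab replicate 1 stood apart, with summed FPKM of 865 for 6 goblet cell markers (3243 to 6422 in the 8 other libraries) and of 48.0 for 7 enteroendocrine markers (173 to 531).

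Of the 8 tested members only Avil was called, higher in IgG Ab than in Control mice and lower in anti-S100a9 Ab than in IgG Ab mice. In the IgG Ab group against Control, 1 of 8 members was called, beside 11.2% of all genes tested. In anti-S100a9 Ab against IgG Ab, 1 of 8 was called, beside 21.1% of all genes. In anti-S100a9 Ab against Control no member was called by limma, beside 0.0131% of all genes, and 1 member, Alox5, had an unadjusted p under 0.05, beside 16.0%. With the rule of the study, which asks for over 2-fold change besides an unadjusted p under 0.05, 2 members passed in the first comparison (Avil and Trpm5), 1 in the second (Avil) and 0 in the last, beside 13.6%, 16.0% and 3.15% of all genes. The shares in the first comparison lie near the background, so the count itself is nothing particular to tuft cell genes. The 3 comparisons share their samples in pairs, and the rise and the fall of Avil both rest on the IgG Ab libraries.

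**Figure D1:**
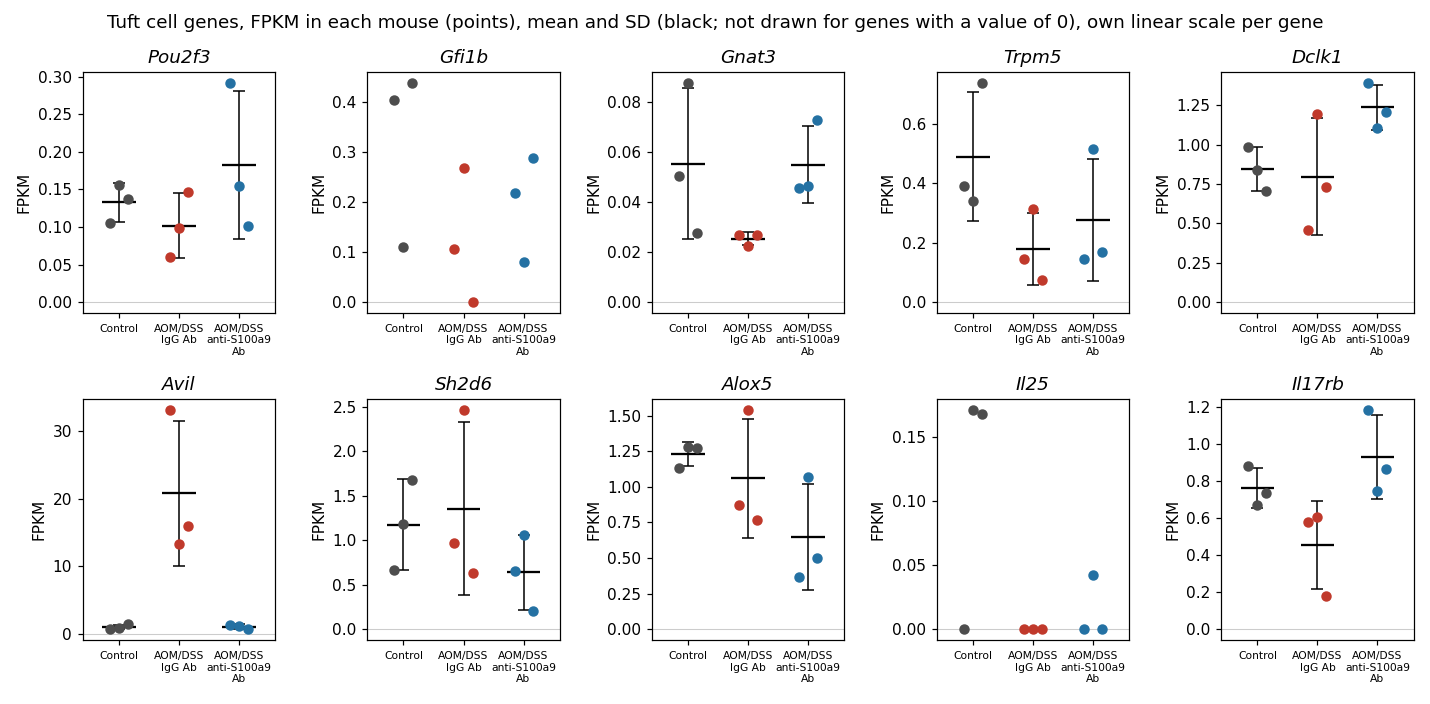
FPKM of the 10 tuft cell genes in each of the 9 mice, 1 panel per gene with its own linear scale; points are mice, black lines the mean and SD of 3 mice, omitted for Gfi1b and Il25. The IgG Ab points of Avil (13.3 to 33.2 FPKM) stand clear of both other groups. All groups overlap for Pou2f3, Gfi1b, Sh2d6 and Il25. For Trpm5, Il17rb, Dclk1, Alox5 and Gnat3, some groups overlap and others do not.

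Avil encodes advillin, an actin-binding protein of the villin family that is enriched in tuft cells and is also made by sensory neurons. It lies on chromosome 10 (GRCm38, 127000709 to 127020994, plus strand). Its level was 0.728, 0.894 and 1.36 FPKM in the Control mice. In the IgG Ab mice it was 33.2, 13.3 and 16.0 FPKM, and in the anti-S100a9 Ab mice 1.35, 1.06 and 0.640 FPKM. Every IgG Ab library lay above every other library, whereas the Control and anti-S100a9 Ab libraries overlapped. The mean in the IgG Ab group, 20.8 ± 10.8 FPKM (SD, n = 3), was above that of 85.3% of all genes, compared with 43.2% in Control and 42.6% in anti-S100a9 Ab. The log2 fold change was 4.18 against Control (SE 0.40, 95% interval 3.27 to 5.09, limma adjusted p = 0.00088). With anti-S100a9 Ab it fell by 4.16 on the log2 scale against IgG Ab (95% interval of the change -5.07 to -3.25, limma adjusted p = 0.0018). Between anti-S100a9 Ab and Control the log2 difference was 0.02 (95% interval -0.89 to 0.93, limma adjusted p = 0.99). Over 19 alternatives the rise stayed between 3.36 and 4.44 and the fall between -4.42 and -3.34, with adjusted p-values of at most 0.0063 and 0.013. Without IgG Ab replicate 1, the library that stood apart and had the highest value, they were 3.79 and -3.77, and no call among the members changed.

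The exons of Avil share 165 of 3398 bases with those of Tsfm on the other strand, and whether the counting used strand is not given in the sources used here. Tsfm, a mitochondrial translation factor, lay between 7.33 and 12.1 FPKM in all 9 libraries and was not called in any comparison. Markers of other cell types moved with Avil in the same comparisons, as described with the marker lists below, and their part in its change was not tested. To show where transcription of the only called member starts, the 250 bases before its start are given. Those before the start of Trpm5, a member that was not called, follow (both from RefSeq, GRCm38.p6, 5′ to 3′ on the strand of the gene).

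Avil, chr10:127000459-127000708, plus strand: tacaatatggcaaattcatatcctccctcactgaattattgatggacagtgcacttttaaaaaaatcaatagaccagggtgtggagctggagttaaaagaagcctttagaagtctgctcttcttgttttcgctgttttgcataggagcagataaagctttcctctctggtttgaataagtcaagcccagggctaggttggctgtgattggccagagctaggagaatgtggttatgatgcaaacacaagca

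Trpm5, chr7:143094643-143094892, minus strand: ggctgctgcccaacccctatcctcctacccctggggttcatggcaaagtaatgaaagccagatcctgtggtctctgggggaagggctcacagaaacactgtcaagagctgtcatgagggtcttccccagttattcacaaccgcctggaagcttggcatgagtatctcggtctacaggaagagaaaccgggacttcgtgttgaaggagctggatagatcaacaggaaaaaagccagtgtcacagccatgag

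The bases before Avil were 42.0% G or C and those before Trpm5 52.8%. Promoters of 300 bases (250 before and 50 after the start) were at hand for 8 of the 10 members, 9 promoters in all, from which Pou2f3 and Il25 are absent. On both strands they were searched for the octamer ATGCAAAT, the letters bound by POU factors such as Pou2f3, for the AP-1 letters TGACTCA or TGAGTCA, and for the TCF/LEF letters CTTTGAA or CTTTGAT. The octamer occurred in none of the 9 and in 1.74% of all 32851 promoters. AP-1 letters occurred before Dclk1 and Il17rb and in 5.2% of all promoters. TCF/LEF letters occurred before Dclk1 and in 8.65% of all promoters. Neither printed sequence held any of these letters, so nothing in them is in capitals, and such a match or its lack is a description of letters only.

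The transcription factors of the lineage did not pass the test. Pou2f3, without which tuft cells do not form, was at 0.105, 0.156 and 0.137 FPKM in Control, 0.0596, 0.0988 and 0.147 FPKM in IgG Ab, and 0.292, 0.154 and 0.102 FPKM in anti-S100a9 Ab mice. The groups overlapped in all 3 comparisons, and the highest value was a single anti-S100a9 Ab mouse. Its log2 fold change was -0.22 in IgG Ab against Control (95% interval -0.96 to 0.51), 0.45 with anti-S100a9 Ab against IgG Ab (limma adjusted p = 0.32), and 0.23 against Control (limma adjusted p = 0.74). Gfi1b, a zinc finger repressor of tuft cells that also acts in red cell and platelet precursors, was at 0.404, 0.109 and 0.437 FPKM in Control, at 0.107, 0.268 and 0 FPKM in IgG Ab, and at 0.218, 0.0803 and 0.287 FPKM in anti-S100a9 Ab mice. The spread within each group exceeded the differences between groups, with log2 fold changes of -0.97 (95% interval -2.25 to 0.31), 0.51 and -0.45 in the same order and limma adjusted p-values of 0.28, 0.52 and 0.70.

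No member of the taste-like signal chain passed the test. Trpm5, the cation channel that opens at the end of the chain, lay at 0.390, 0.340 and 0.739 FPKM in Control, 0.146, 0.313 and 0.0753 FPKM in IgG Ab, and 0.146, 0.514 and 0.168 FPKM in anti-S100a9 Ab mice. All 3 IgG Ab libraries lay below all Control libraries, and the anti-S100a9 Ab libraries overlapped both. The log2 difference from Control was -1.12 (SE 0.47, 95% interval -2.19 to -0.04, limma adjusted p = 0.16). With anti-S100a9 Ab it was 0.40 against IgG Ab (limma adjusted p = 0.56), and -0.72 against Control (limma adjusted p = 0.45). Trpm5 shares 220 of its 6398 exon bases with Tssc4 on the other strand, and Tssc4 was at 14.0 to 23.3 FPKM in Control, 22.7 to 29.1 FPKM in IgG Ab and 10.2 to 14.3 FPKM in anti-S100a9 Ab mice, called only between the antibodies (log2 fold change -1.10, limma adjusted p = 0.015). Gnat3, gustducin, the G protein subunit of the chain, was at 0.0505, 0.0876 and 0.0277 FPKM in Control, 0.0270, 0.0223 and 0.0267 FPKM in IgG Ab, and 0.0455, 0.0465 and 0.0729 FPKM in anti-S100a9 Ab mice. Scaled to the relative depth of each library (0.853 to 1.117 of the first Control library, read from the steps between low values), these values lay within 5.66% of 1, 2 or 3 steps of 0.0250 FPKM. Gnat3 thus rested on as few as 1 and at most 3 such steps per library, and was listed at 1 step in each IgG Ab library, which is too little to compare groups.

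Dclk1 and Sh2d6, markers with structural or adaptor roles, were not called. Dclk1, a microtubule-associated kinase that is the most widely used tuft cell marker in the mouse and is also made by neurons, was at 0.988, 0.841 and 0.708 FPKM in Control, 0.459, 1.20 and 0.735 FPKM in IgG Ab, and 1.39, 1.11 and 1.21 FPKM in anti-S100a9 Ab mice. All 3 anti-S100a9 Ab libraries lay above all Control libraries, and the IgG Ab libraries spread across both groups. Its log2 fold change was -0.15 in IgG Ab against Control (95% interval -0.88 to 0.58, limma adjusted p = 0.79), 0.66 with anti-S100a9 Ab against IgG Ab (95% interval -0.08 to 1.39, limma adjusted p = 0.16), and 0.51 against Control (limma adjusted p = 0.44). The summed FPKM of 8 enteric neuron markers was 20.8 to 48.1 in Control, 13.8 to 46.9 in IgG Ab and 32.2 to 45.3 in anti-S100a9 Ab, with the neuronal tubulin Tubb3 listed at 0 throughout, and the part of neurons in the level of Dclk1 was not tested. Sh2d6, an adaptor protein with an SH2 domain, was at 0.661, 1.18 and 1.68 FPKM in Control, 0.969, 2.46 and 0.632 FPKM in IgG Ab, and 0.656, 1.06 and 0.207 FPKM in anti-S100a9 Ab mice. The 3 groups overlapped, and the values within each group spanned more than any difference between the group means. The log2 fold changes were 0.07 (95% interval -1.31 to 1.45), -0.97 (95% interval -2.34 to 0.41) and -0.90 in the same order, with limma adjusted p-values of 0.95, 0.26 and 0.46.

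Among the effector genes, Alox5, Il25 and the Il25 receptor chain Il17rb showed no called change. Alox5, the 5-lipoxygenase that starts leukotriene synthesis in tuft cells and in myeloid cells, was at 1.13, 1.28 and 1.27 FPKM in Control, 0.876, 1.54 and 0.766 FPKM in IgG Ab, and 0.365, 1.07 and 0.504 FPKM in anti-S100a9 Ab mice. The Control libraries were tightly grouped and lay above all anti-S100a9 Ab libraries, whereas the IgG Ab libraries overlapped both. Against Control the log2 difference was -0.94 with anti-S100a9 Ab (95% interval -1.81 to -0.07, limma adjusted p = 0.30) and -0.25 with IgG Ab (95% interval -1.12 to 0.62, limma adjusted p = 0.70). Between the antibodies it was -0.69 (95% interval -1.56 to 0.18, limma adjusted p = 0.21). Il25, the alarm cytokine that tuft cells release, was listed at 0, 0.171 and 0.168 FPKM in Control, at 0 in all 3 IgG Ab mice, and at 0, 0.0424 and 0 FPKM in anti-S100a9 Ab mice. After the same scaling, the values above 0 lay within 4.48% of 1 or 3 steps of 0.0486 FPKM and added up to 7 steps over all 9 libraries. No fold change is given against a group listed at 0, and in a fit without a filter the difference between IgG Ab and Control had a limma adjusted p = 0.13.

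Il17rb, which pairs with Il17ra to receive Il25 on innate lymphoid cells and is also found on tuft cells, was at 0.881, 0.668 and 0.736 FPKM in Control, 0.580, 0.606 and 0.179 FPKM in IgG Ab, and 1.18, 0.748 and 0.862 FPKM in anti-S100a9 Ab mice. The IgG Ab libraries were the 3 lowest of the 9, below every library of both other groups, which overlapped each other. The log2 difference was -0.75 in IgG Ab against Control (95% interval -1.62 to 0.13, limma adjusted p = 0.23), 0.99 with anti-S100a9 Ab against IgG Ab (95% interval 0.12 to 1.86, limma adjusted p = 0.094), and 0.24 with anti-S100a9 Ab against Control (limma adjusted p = 0.77). Il17rb shares 141 of 3707 exon bases with Actr8 on the other strand, which was at 10.7 to 16.9 FPKM in the 9 libraries and called in no comparison.

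**Figure D2:**
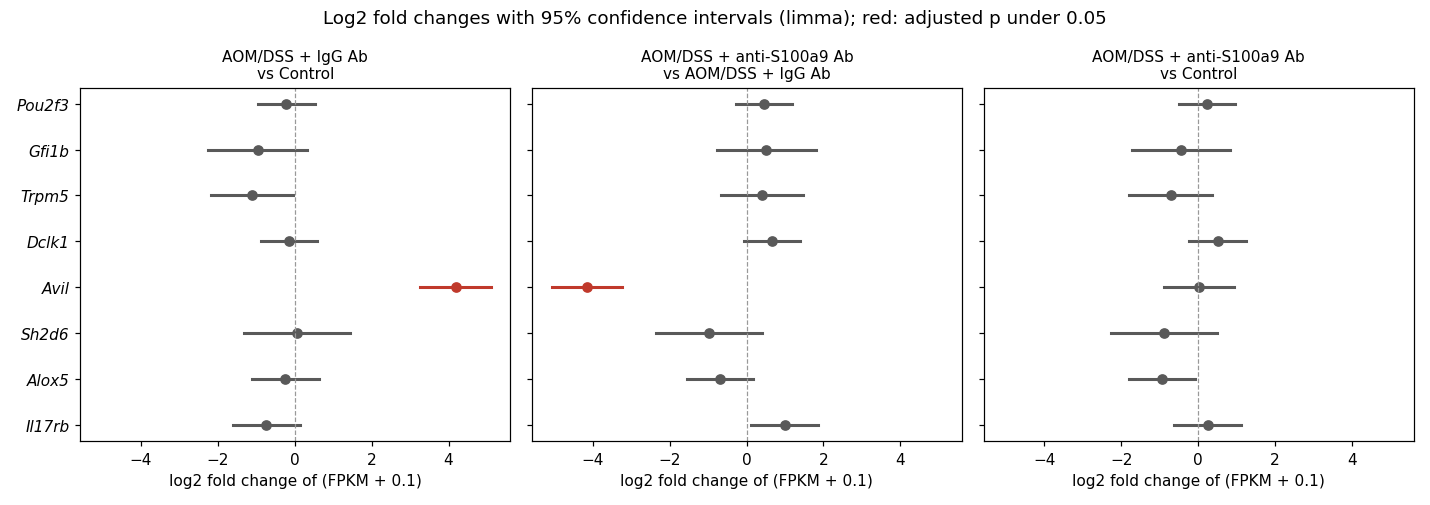
Log2 fold changes of (FPKM + 0.1) of the 8 tested tuft cell genes in the 3 comparisons; points are estimates, bars 95% confidence intervals from limma, red marks an adjusted p under 0.05. Avil alone is red, at 4.18 and -4.16; the other 7 genes lie between -1.12 and 0.07 in the first comparison and between -0.97 and 0.99 in the second.

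Read as a set, the 8 tested members had a median log2 fold change of -0.24 in IgG Ab against Control, 0.42 with anti-S100a9 Ab against IgG Ab and -0.22 with anti-S100a9 Ab against Control, beside medians of 0.09, -0.06 and 0.04 over all genes tested. The groups did not overlap for 3 tested members in the first comparison (Avil higher, Trpm5 and Il17rb lower), beside 31.0% of all genes. They did not overlap for 2 in the second (Il17rb higher, Avil lower), beside 46.9% of all genes, and for 2 in the last (Dclk1 higher, Alox5 lower), beside 31.0%. None of these counts lies above the background share by as much as 1 member. Apart from Avil, the signs of the fold changes were mixed in the comparisons of anti-S100a9 Ab with either group.

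Correlations between the members from mouse to mouse were mixed. Over the 9 libraries, which also differ by group and depth, Pearson's r between pairs of tested members ran from -0.65 for Avil and Il17rb to 0.77 for Sh2d6 and Alox5. Gfi1b and Il17rb had an r of 0.73 and Trpm5 and Alox5 of 0.66, whereas Pou2f3 and Trpm5, both defining tuft cell genes, had an r of -0.03. Pou2f3 lay at 0.0596 to 0.292 FPKM and Trpm5 at 0.0753 to 0.739 FPKM. At such low levels an r near 0 cannot show that the 2 genes vary apart. The 10 genes outside the set whose log2 values were most like the mean of the tested members were Mboat7 (r = 0.906 over 9 libraries), Otud7a, Gml2, Acat2, Coro2b, Gpr55, Preb, Npm2, Kin and Cdc25a (r = 0.832), none of them in the lists of tuft cell genes used here. Sh2d7, an adaptor related to Sh2d6 and picked out after its values were seen, was the gene most like Trpm5 (r = 0.925 over 9 libraries). It lay at 0.370 to 0.541 FPKM in Control and 0.0779 to 0.218 FPKM in IgG Ab mice, with no overlap and a limma adjusted p = 0.079.

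The wider tuft cell gene lists were read in the same comparisons. Of the other 10 genes of the taste signal chain, 6 were tested. Tas1r3, a taste receptor subunit, fell in IgG Ab against Control, 1 of 6, beside 11.2% of all genes called. No gene of the list was called between the antibodies or with anti-S100a9 Ab against Control, beside 21.1% and 0.0131% of all genes. Tas1r3 was at 0.385, 0.389 and 0.407 FPKM in Control, 0.192, 0.148 and 0.123 FPKM in IgG Ab, and 0.333, 0.257 and 0.232 FPKM in anti-S100a9 Ab mice. The IgG Ab libraries were the 3 lowest of the 9. The log2 fold change against Control was -0.97 (limma adjusted p = 0.039), and the call was kept in 6 of 18 alternatives. It was lost, with adjusted p-values up to 0.15, when any single library other than IgG Ab replicate 1 was left out. The median of the list was -0.79 in this comparison, 0.50 with anti-S100a9 Ab against IgG Ab and 0.17 with anti-S100a9 Ab against Control.

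None of the 6 eicosanoid and acetylcholine enzymes was called by limma in any comparison, beside 11.2%, 21.1% and 0.0131% of all genes. At an unadjusted p under 0.05, 1, 2 and 2 of them were higher in the 3 comparisons, in the order used above, beside 29.5%, 39.1% and 16.0% of all genes in either direction. The 2 of highest mean level were Ptgs1, a cyclooxygenase, at 16.4 FPKM over the 9 libraries, and Ltc4s, which makes leukotriene C4, at 6.57 FPKM. Another 14 tuft cell regulators and markers were in the tables, all 14 were tested and none was called by limma. At an unadjusted p under 0.05, 1 was higher and 1 lower in IgG Ab against Control, 1 higher and 2 lower with anti-S100a9 Ab against IgG Ab, and none with anti-S100a9 Ab against Control. The 2 of highest mean level were Vil1, the villin of the brush border in all enterocytes, at 150.4 FPKM over the 9 libraries, and Hepacam2, an adhesion protein also made by goblet cells, at 32.3 FPKM.

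Of 12 genes of the type 2 circuit around tuft cells, 9 were tested, of which 3 rose in IgG Ab against Control (Il1rl1, Il33 and Il4ra) and 3 fell with anti-S100a9 Ab against IgG Ab (Il1rl1, Il33 and Areg), beside 11.2% and 21.1% of all genes called in either direction. Il1rl1, the receptor of the alarm cytokine Il33, was at 0.651, 0.461 and 0.295 FPKM in Control, 9.89, 5.81 and 8.36 FPKM in IgG Ab, and 1.32, 0.900 and 1.05 FPKM in anti-S100a9 Ab mice. The 3 groups did not overlap, with IgG Ab highest and Control lowest. Its log2 fold change was 3.85 (limma adjusted p = 0.00045) and, with anti-S100a9 Ab against IgG Ab, -2.75 (limma adjusted p = 0.0029), and both calls were kept in all 19 alternatives. Il33 was at 2.71 to 3.65 FPKM in Control, 5.87 to 15.8 FPKM in IgG Ab and 2.40 to 4.96 FPKM in anti-S100a9 Ab mice. Its rise (log2 fold change 1.63, limma adjusted p = 0.028) and its fall (log2 fold change -1.49, limma adjusted p = 0.027) were each kept in 14 of 19 alternatives. The rise was lost without any 1 Control library, without IgG Ab replicate 1, or when only the 2 groups compared were fitted. The fall was lost without IgG Ab replicate 1 or 2, without anti-S100a9 Ab replicate 2 or 3, or with values centred on epithelial markers.

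Il4ra, the receptor chain through which Il4 and Il13 act, rose by a log2 fold change of 1.08 in IgG Ab against Control (limma adjusted p = 0.045), and Areg, an epidermal growth factor receptor ligand made by type 2 lymphoid cells among others, fell by 1.38 on the log2 scale with anti-S100a9 Ab against IgG Ab (limma adjusted p = 0.047). These calls were kept in 6 and 5 of 19 alternatives. When single libraries were left out, that of Il4ra held only without Control replicate 3 or IgG Ab replicate 1, and that of Areg only without IgG Ab replicate 2. Il4, Il5 and Il13 did not pass the filter on low values. No gene of the circuit was called with anti-S100a9 Ab against Control, and 1 was higher and 1 lower at an unadjusted p under 0.05. By that rule 5 were higher and 1, Tslp, lower in IgG Ab against Control (Tslp log2 fold change -1.06, limma adjusted p = 0.074). Between the antibodies 1 was higher and 4 lower. Such a p was found for 29.5% of all genes in IgG Ab against Control, 39.1% between the antibodies and 16.0% with anti-S100a9 Ab against Control, in either direction.

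**Figure D3:**
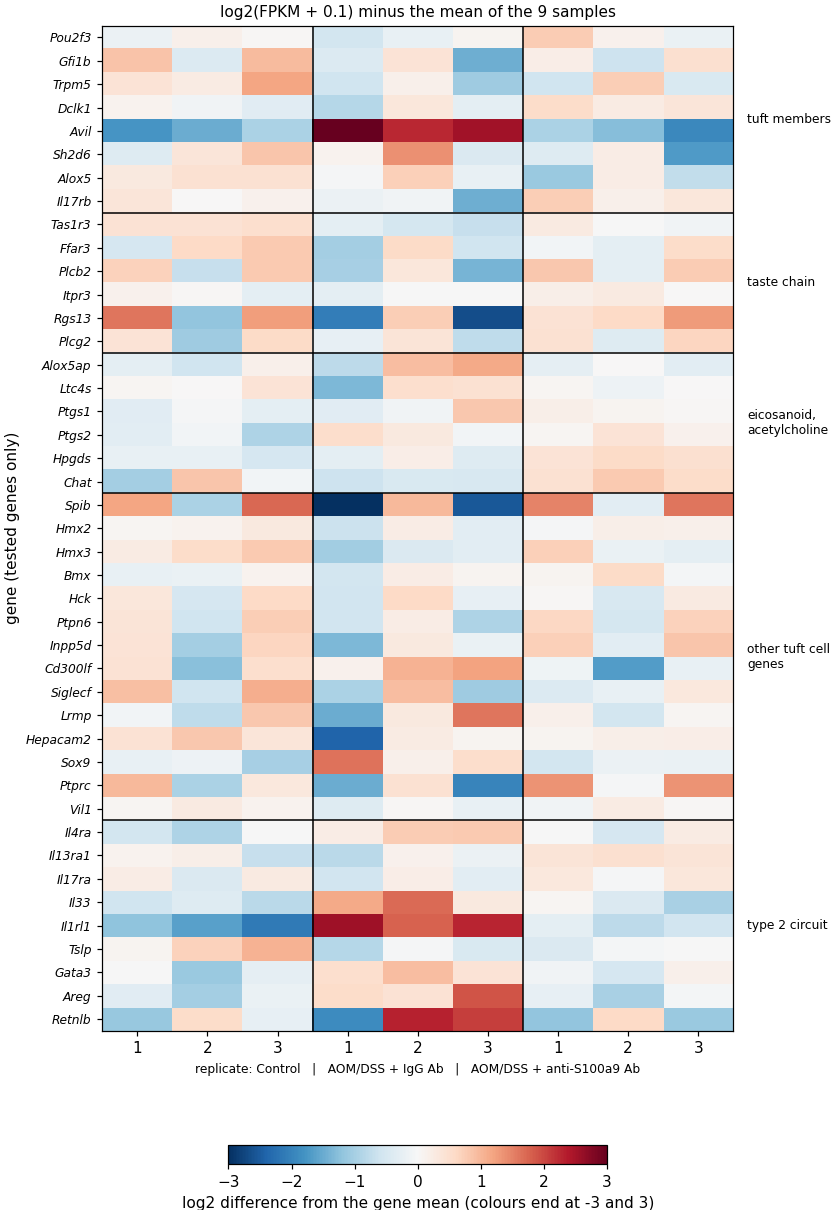
Log2(FPKM + 0.1) of the tested tuft cell genes and 4 related lists in each of the 9 libraries, as the difference from the mean of the 9 (red above, blue below, colours end at -3 and 3). Avil and Il1rl1 are red in all 3 IgG Ab columns and blue in all Control columns, whereas Spib, Rgs13 and Gfi1b vary within each group.

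Several genes of the tuft cell lists are also made by lymphocytes. The summed FPKM of 5 B cell markers was 124, 25.3 and 235 in Control, 7.39, 107 and 12.3 in IgG Ab, and 178, 48.5 and 195 in anti-S100a9 Ab mice, with none of the 5 markers at 0 throughout a group and none called. Spib, a transcription factor of tuft, M and B cells, was at 25.8, 5.83 and 37.4 FPKM, 1.15, 22.4 and 1.86 FPKM, and 31.9, 9.02 and 34.4 FPKM in the same mice. Its order within a group was that of the B cell sum in 3 of 3 groups, and that of Gfi1b and of Plcg2, a phospholipase of tuft and B cells, in 2 of 3. The order of Trpm5, Dclk1 and Plcb2 matched that of the B cell sum in 1 of 3 groups. That of Pou2f3, Avil, Sh2d6, Alox5, Il17rb and Rgs13 matched it in none. With 3 mice per group such matches are a description only. The part of lymphoid tissue in the level of these genes was not tested.

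**Figure D4:**
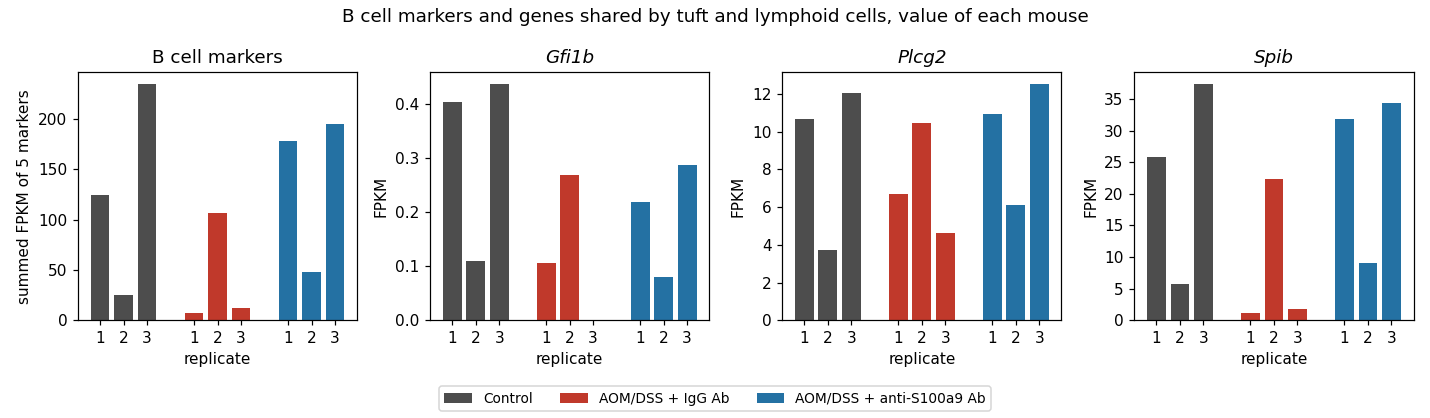
Summed FPKM of 5 B cell markers (left) and FPKM of Gfi1b, Plcg2 and Spib, 1 bar per mouse, coloured by group. Replicate 2 is the lowest Control and the lowest anti-S100a9 Ab mouse in all 4 panels and the highest IgG Ab mouse.

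Markers of other cell types differed between the groups as follows, where 11.2% of all genes were called in IgG Ab against Control and 21.1% between the antibodies. Of 10 neutrophil markers 7 rose in IgG Ab (summed FPKM 138 to 696, Control 90.9 to 121) and 6 fell with anti-S100a9 Ab (102 to 181), with Ngp at 0 throughout Control. Most of the Control sum was Ly6g, at 88.8 to 117 FPKM in Control, 26.1 to 96.0 FPKM in IgG Ab and 82.1 to 150 FPKM in anti-S100a9 Ab. Ly6g was not called, and its log2 fold changes of -0.74 and 0.94 ran opposite to those of the called markers. Among the 7 that passed the test, the log2 fold change was largest for S100a9 (7.73), S100a8 (7.37), Retnlg (4.89) and Mmp8 (3.42). Of 7 squamous epithelium markers 5 were tested, and Krt14, Krt13, Krt4 and Krt6a rose and then fell, with summed FPKM of 2.02, 1.02 and 2.10 in Control, 49.2, 7.84 and 31.6 in IgG Ab, and 3.63, 2.70 and 1.60 in anti-S100a9 Ab. Krt6a and Sprr1b were at 0 throughout Control, and Sprr1b also throughout anti-S100a9 Ab. The order of Avil within a group was that of the squamous sum in 2 of 3 groups. It was that of the neutrophil, the mast cell and the epithelial sum in 1 of 3 each, and that of the enteric neuron sum in 0. In the IgG Ab mice the highest Avil value fell in the library with the highest squamous sum and the lowest neutrophil sum. With 3 mice per group such orders are a description only, and the source of Avil was not tested. Of 10 mast cell markers only Tpsab1 rose (log2 fold change 3.67) and fell (-3.63), Kit rose with anti-S100a9 Ab (1.05), and the summed FPKM was 21.3 to 72.2, 46.7 to 261 and 35.7 to 46.7 in the order of groups above.

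Of 7 epithelial markers, which include Epcam and Cdh1 and define the tissue, only Krt18 was called, higher by 1.19 and then lower by a log2 fold change of -1.42. Their summed FPKM was 4271 to 5568 in Control, 3823 to 5368 in IgG Ab and 3750 to 4768 in anti-S100a9 Ab, so epithelium was present throughout. No macrophage, goblet cell or B cell marker was called by limma in any comparison. At an unadjusted p under 0.05, 2 of 8 macrophage markers had higher values with anti-S100a9 Ab, Adgre1 against IgG Ab and Cd68 against Control, and none against both. By the same rule 3 of 5 B cell markers were higher with anti-S100a9 Ab against IgG Ab, and 1 of 6 goblet cell markers was lower in IgG Ab against Control. Of all genes tested, 29.5% in IgG Ab against Control, 39.1% between the antibodies and 16.0% with anti-S100a9 Ab against Control had such a p in either direction. Among 7 enteroendocrine markers Neurod1 fell in IgG Ab (log2 fold change -1.90). With anti-S100a9 Ab against IgG Ab, the megakaryocyte marker Itga2b fell (-0.85, 5 of 8 markers of its list tested), and the neuron marker Elavl4 (1.80) and the glia marker Sox10 (1.63) rose. The part of any of these cell types in the values of the tuft cell genes was not tested.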

How the data were processed

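Colon RNA of 9 mice was sequenced, 3 per group. The authors deposited a table of FPKM values for each mouse, with 21544 rows labelled by gene symbols. That unit is named nowhere and was inferred from decimal values adding up to 308377 to 408811 in a library. The submitters' processing notes name TopHat, Cufflinks, HTSeq, DESeq and the build GRCm38, without their roles, and the labels name the mirVana kit. Counts were not used here, so no counting error is given; precision comes from the spread of 3 mice.

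Repeated symbols (46 rows) were summed, which left 21498 symbols. log2(FPKM + 0.1) of the 15278 genes that reached 0.1 FPKM in 3 or more samples was fitted with limma 3.58.1 in R 4.3.3 (all 9 samples, intensity trend, no replicate block), with Benjamini-Hochberg adjusted p-values over all genes tested. The fit was tested on simulated data. The DESeq test of the study needs counts and was not repeated. Alternatives covered the study's thresholds (unadjusted p under 0.05 and over 2-fold), the groups fitted, the replicate block, pseudocounts of 1 and 0.01, the filter, the scaling, the trend and leaving out each sample; for genes of the wider lists these were added after seeing the data.

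All 10 members are named. From each other list, called genes are named (at most the 4 largest per list), or the 2 of highest level where a tuft cell list had none; a marker gene outside the tuft cell lists is not reported here. The members and lists were chosen with earlier results of these data known. Gene positions are from GENCODE M21 and promoters from RefSeq (GRCm38.p6). Same-numbered replicates deviated together with correlations of -0.187 to 0.249 over 9 pairs and were not treated as pairs. Plots used matplotlib 3.10.9, and tables were made in Python 3.11.15 with numpy 2.4.6 and pandas 2.3.3.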

Additional observations from a re-analysis of the deposited data

How the results depend on the processing

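Over the 19 alternatives, Avil kept both calls, and no other tested member gained one. Of 444 values of single members, 431 kept their direction and side of the threshold and 13 reversed, all of them small differences that were not called. Under the study's thresholds (an unadjusted p under 0.05 and over 2-fold), 2 members passed in IgG Ab against Control, Avil and Trpm5, beside 13.6% of all genes tested, in place of 1. The replicate block changed no call among the members, with 1 called in the first comparison as without it, and in 5 of 9 pairings a library deviated most like that of its own number in the other group.

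The sign turned for Sh2d6 in IgG Ab against Control with median-of-ratios scaling (-0.0302) and quantile normalization (-0.049), and for Avil in anti-S100a9 Ab against Control (-0.0052 and -0.14). When 1 library was left out, the log2 fold change against Control with IgG Ab ran from -0.46 to 0.15 for Dclk1 and from -0.44 to 0.46 for Sh2d6. That of Trpm5 with anti-S100a9 Ab against IgG Ab ran from -0.0236 to 0.73. Against Control with anti-S100a9 Ab, Pou2f3 ran from -0.0334 to 0.45 and Avil from -0.20 to 0.29. The cause was not tested.

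Scaling moved the median of all genes from 0.09 to -0.01 (median-of-ratios) or -0.03 (quantile) in IgG Ab against Control, and centring on epithelial markers moved it from 0.04 to 0.24 in anti-S100a9 Ab against Control and from -0.06 to 0.08 between the antibodies. With a filter of at least 1 FPKM, only Dclk1, Avil, Sh2d6 and Alox5 were tested. Among marker genes, Neurod1 kept its call in 11 of 19 alternatives, Kit in 5 and Itga2b in 5 of 18. Levels of a few steps per library, as for Gnat3 and Il25, limit what these libraries can show for those genes.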

Other observations

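Because Avil was the only tuft cell gene called, the other members of its family and its neighbours were looked up after its values had been seen. Of 7 other genes of the villin family, 0 were called higher and 1 lower in IgG Ab against Control by limma, beside 11.2% of all genes, and 2 were called higher and 2 lower with anti-S100a9 Ab against IgG Ab, beside 21.1%. At an unadjusted p under 0.05, Vill and Capg also had higher values in IgG Ab than in Control (limma adjusted p = 0.068 and 0.067), and Scin, scinderin, lower ones (log2 fold change -1.60, limma adjusted p = 0.13). Such a p was found for 29.5% of all genes in IgG Ab against Control, in either direction. With anti-S100a9 Ab against IgG Ab the log2 fold change of Scin was 1.62 (limma adjusted p = 0.094). Gsn, gelsolin, which severs actin filaments, was the 1 called lower in IgG Ab against Control. It was at 399, 595 and 606 FPKM in Control, 106, 183 and 218 FPKM in IgG Ab, and 410, 408 and 397 FPKM with anti-S100a9 Ab. The IgG Ab libraries did not overlap either of the other groups, with log2 fold changes of -1.70 against Control (limma adjusted p = 0.0085) and 1.33 between the antibodies (limma adjusted p = 0.018). Vill, a villin-like protein, was at 8.23 and 9.29 FPKM in IgG Ab replicates 1 and 3, at 0.936 FPKM in replicate 2, and at 0.484 to 0.942 FPKM in the 6 other libraries. It fell by 2.61 on the log2 scale between the antibodies (limma adjusted p = 0.038), and Capg, which caps actin filaments, by 1.22 (limma adjusted p = 0.049), whereas Svil, supervillin, rose by 1.17 (limma adjusted p = 0.029).

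Of 5 genes near Avil on chromosome 10, Ctdsp2, Tsfm, Mettl1 and Tspan31 were called in no comparison. Ctdsp2 was at 37.6 to 55.6 FPKM over the 9 libraries and Tsfm at 7.33 to 12.1 FPKM. Cdk4, a cell cycle kinase, rose in IgG Ab mice (log2 fold change 1.04, limma adjusted p = 0.021) and fell by 1.31 on the log2 scale between the antibodies (limma adjusted p = 0.0096). In these comparisons 11.2% and 21.1% of all genes were called, so the count of called neighbours is nothing particular. Over the 9 libraries the genes most like Avil were Mt3, Rab44 and Pdgfrl, with Pearson's r of 0.992, 0.991 and 0.991. In each of them all 3 IgG Ab libraries lay above the other 6, for Mt3, a metallothionein, at 258 to 687 FPKM against at most 12.98 FPKM. Without Avil, the genes most like the mean of the other tested members included Mzb1 (r = 0.900), which B and plasma cells make, Nkx2-2 (r = 0.875), an enteroendocrine transcription factor, and Gpr15 (r = 0.889), a homing receptor of lymphocytes. These genes were picked after their values were seen, and the part of those cells was not tested.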
